A study of Mus musculus with 5 samples.

Results

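The miR-125, miR-99 and miR-100 families were followed in 5 mouse cell cultures, each measured on 1 single-colour microRNA (miRNA) array. The members were the 7 spots named mmu-miR-125a-5p, mmu-miR-125a-3p, mmu-miR-125b-5p, mmu-miR-99a-5p, mmu-miR-99b-5p, mmu-miR-99b-3p and mmu-miR-100-5p (the mouse prefix mmu is left out from here), out of 1265 miRNA spots, and each had 1 spot per array. They were chosen by name, for their place beside let-7 genes in the genome, and not by a cut on any value. The cultures were V6.5 ES, a wild-type embryonic stem (ES) cell line; PKM1 KI ES, an ES line whose label reads as a knock-in (KI) of PKM1, an isoform of pyruvate kinase, an enzyme of glycolysis; 2TS22c ES and ZHBTc4 ES, known as lines made for switching off Sox2 and Oct3/4 respectively; and an embryoid body (EB), a floating aggregate grown from V6.5. The ES lines were kept with leukaemia inhibitory factor (LIF), and the EB was kept without it for 1 week. No drug, feeder layer or clone is named in the labels for any culture, so whether the Sox2 or Oct3/4 switch was used is not known here, and every group is 1 array with no replicate.

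A miRNA guides the silencing complex to messenger RNAs that pair with its seed, bases 2 to 8 from the 5′ end, so miRNAs with the same seed are grouped as a family. miR-125 is the mammalian relative of lin-4, the worm miRNA that times larval development, and miR-99 and miR-100 are relatives of the miR-10 family. In mammals these miRNAs lie in the order miR-99 or miR-100, let-7, miR-125 at several loci, and let-7 and miR-125 are both known to act on Lin28, an RNA-binding protein of pluripotent cells that blocks let-7 maturation. let-7 and miR-125 are known to build up as ES cells differentiate.

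The sequences are shown first because the members fall into a few seeds, and because close relatives may share signal on an array. All 7 had a mature sequence in RefSeq (GRCm38.p6). The miR-125 guide strands are given with the seed in capitals.
miR-125a-5p: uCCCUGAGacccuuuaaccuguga
miR-125b-5p: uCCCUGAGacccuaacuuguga
These share their first 13 bases. The miR-99 and miR-100 guide strands share another seed.
miR-99a-5p: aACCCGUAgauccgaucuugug
miR-99b-5p: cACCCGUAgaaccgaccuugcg
miR-100-5p: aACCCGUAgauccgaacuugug
Counted from the 5′ end, miR-99a-5p and miR-100-5p differ only by U16A (miR-99a-5p base first), and miR-99a-5p and miR-99b-5p by A1C, U11A, U16C and U21C. The opposite arms have seeds of their own.
miR-125a-3p: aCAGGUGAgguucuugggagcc
miR-99b-3p: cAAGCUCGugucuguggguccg

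The members come from 3 loci, all on the plus strand in GRCm38.p6. Mir99b, Mirlet7e and Mir125a lie within 683 bases at chr17:17830194-17830876 (first to last mature base), inside the span of the protein-coding gene Spaca6. Mir99a, Mirlet7c-1 and Mir125b-2 lie within 47.4 kb at chr16:77598940-77646339. Mir100, Mirlet7a-2 and Mir125b-1 lie within 50.6 kb at chr9:41531437-41582001, inside the span of the long non-coding RNA gene Mir100hg. miR-125b-5p is made from both Mir125b-1 and Mir125b-2, so its spot cannot tell the loci apart. The Mir125a hairpin is shown because its arms are compared across the cultures below, with the 5p and then the 3p mature strand in capitals.
Mir125a: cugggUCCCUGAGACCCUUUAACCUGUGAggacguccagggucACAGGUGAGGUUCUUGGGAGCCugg

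Intensities below are the median pixel brightness of a spot as the scanner gave it, and levels are the same values after background correction, quantile normalisation over the 5 arrays and log2. A level can be compared between arrays but not between probes. A spot was called detected when it exceeded the average of the array's 1664 blank spots by over 2 SD, a limit of 59.9 on V6.5 ES, 59.5 for PKM1 KI ES, 40.3 for the EB, 59.9 for 2TS22c ES and 61.6 for ZHBTc4 ES. The stricter limit from the 24 negative control spots was 72.2, 73.7, 50.3, 64.6 and 68.5 in that order. The EB array was scanned at a detector gain of 43, against 46 for 2TS22c ES and 47 for the others, and its blank spots averaged 33.2, against 48.1 to 49.7 on the others. ZHBTc4 ES lay alone on the second of 2 chips. Between 507 and 763 of the miRNA spots were detected per array. The share was 40.1% on 2TS22c ES and 41.1% on ZHBTc4 ES, against 59.3% to 60.3% on the others. Spots of 1 spike control, 8 of each on an array, had SDs of 0.05 to 0.16 on the log2 scale, which is the spread within an array of bright spots and not the spread between cultures.

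The ES character of the cultures was checked on miRNAs. Of 14 spots of the miR-290 to miR-295 cluster, the most abundant miRNAs of mouse ES cells, 14 were detected on every array except 2TS22c ES, which had 13. Of 5 spots of the miR-302 cluster, of the early post-implantation epiblast, 5 were detected on V6.5 ES, PKM1 KI ES and the EB, and 1 on each of 2TS22c ES and ZHBTc4 ES. Of 8 spots of mesenchymal, fibroblast and feeder cell miRNAs, 8 were detected on V6.5 ES, PKM1 KI ES and the EB and 5 on each of the others. Neural markers were detected at 4 of 4 on the EB, 3 of 4 on V6.5 ES and PKM1 KI ES and 1 of 4 on the other lines, and muscle markers at 1 of 3 or fewer on every array. The lower marker counts on 2TS22c ES and ZHBTc4 ES stand beside the lower share of all miRNAs detected on those arrays.

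**Figure D1:**
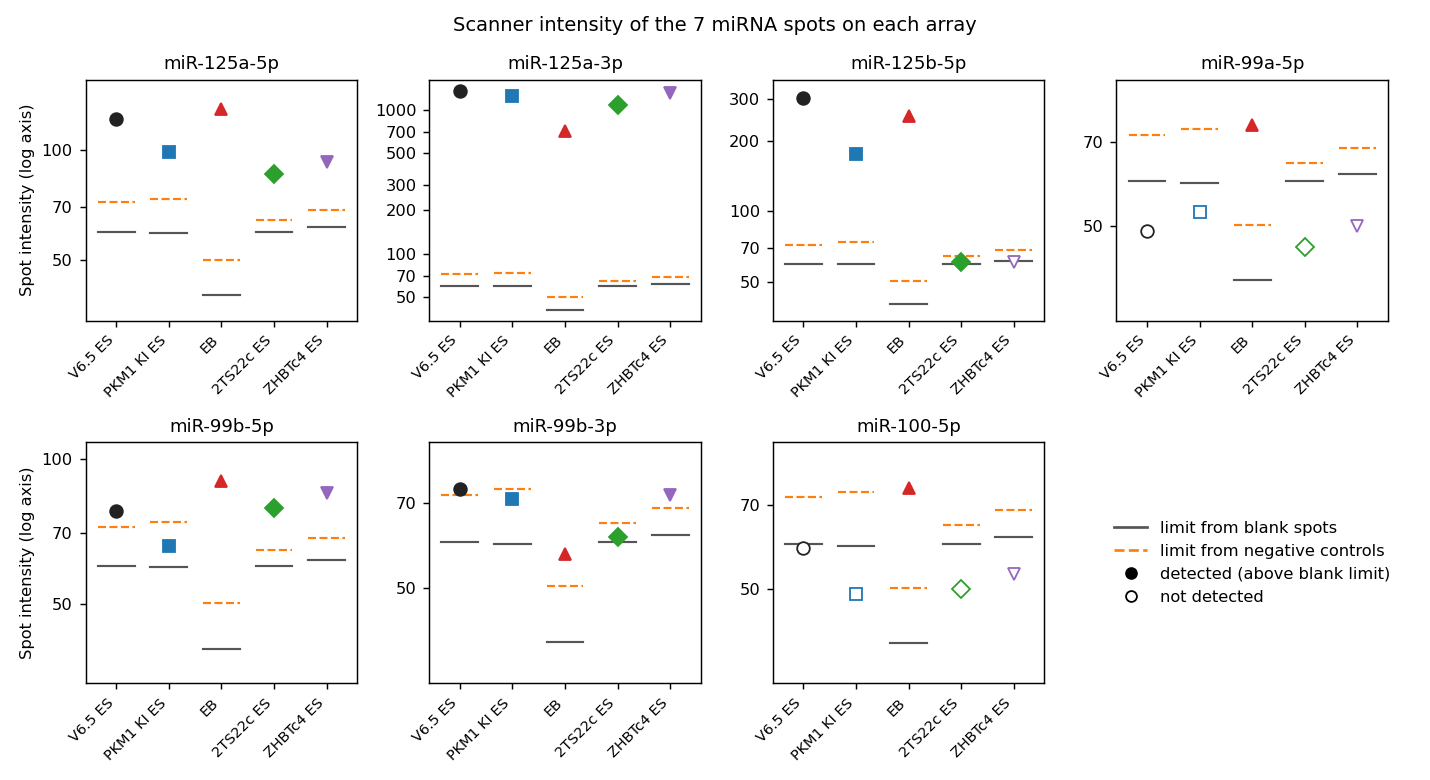
Scanner intensity of each of the 7 spots (log axis) on each array, with the limit from the blank spots (solid line) and from the negative control spots (dashed line) of that array. Filled symbols lie above the blank limit; miR-99a-5p and miR-100-5p do so on the EB array alone.

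Of the 7 members, 5 were detected on V6.5 ES, 5 for PKM1 KI ES, 7 for the EB, 5 for 2TS22c ES and 4 for ZHBTc4 ES. With the limit from the negative controls these counts were 5, 3, 7, 3 and 4. The members that were never above either limit in an ES line were miR-99a-5p and miR-100-5p, and the member that was above the blank limit in some ES lines and not in all was miR-125b-5p.

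The clearest difference between the cultures was that of miR-125b-5p, which is known from differentiated lineages and to target Lin28 and Trp53 in other settings. Its intensity was 303 on V6.5 ES, 175 for PKM1 KI ES, 254 for the EB, 61 for 2TS22c ES and 61 for ZHBTc4 ES. The first 3 arrays were far above both limits, while 2TS22c ES was just above its blank limit and below that of its negative controls, and ZHBTc4 ES was below both. The levels were 7.96, 7.33, 8.05, 6.34 and 6.27 in the same order. miR-125b-5p was 3.07-fold lower on 2TS22c ES than on V6.5 ES and at least 3.16-fold lower on ZHBTc4 ES. It was the only member at least 2-fold apart in either comparison, beside 1.99% of 804 miRNAs at least 2-fold lower on 2TS22c ES and 1.61% of 805 on ZHBTc4 ES. Of the other members, all but miR-125a-3p were too dim on V6.5 ES for a 2-fold fall to be seen. For a miRNA seen on 1 array of a pair, the difference is a bound: its level there against its own dim level or the lowest detected level of the other array, whichever was higher. The drop held under the 6 other processings tried, with log2 differences from -4.71 to -1.15 for 2TS22c ES and from -3.98 to -1.22 for ZHBTc4 ES. With 1 array per culture, a difference between lines and one between arrays cannot be told apart. As with any bulk RNA, fewer cells with the miRNA and less of it per cell cannot be told apart.

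On the same arrays the miRNAs of mesenchymal, fibroblast and feeder cells were also lower. Their summed level was 10.15 on V6.5 ES, 9.94 on PKM1 KI ES and 10.07 on the EB, against 9.68 on 2TS22c ES and 9.67 on ZHBTc4 ES on the log2 scale, with miR-21a-5p the brightest on every array. Their part in the miR-125b-5p result was not tested. Among the 959 miRNAs detected on at least 1 array, 25.3% lay below the other 3 arrays in both 2TS22c ES and ZHBTc4 ES, and miR-125b-5p was the only member of 7 that did. It did so under all 7 processings, while miR-125a-5p did with spike scaling and miR-99a-5p, undetected on the ES arrays, with local background.

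miR-125b-5p was also lower in PKM1 KI ES than in V6.5 ES. The level difference of -0.63 (1.54-fold) was 2.58 times the SD of the differences of all miRNAs detected on both arrays (0.24), and 1.49% of 874 miRNAs were at least 1.5-fold lower. Across the other processings it ranged from -1.04 to -0.30, always lower but of uncertain size. Between the EB and V6.5 ES the difference was 0.09, within the spread of that pair (0.29), and it ranged from -0.24 to 0.53 with the processing. The order of miR-125b-5p was the EB and V6.5 ES, which were not separable, then PKM1 KI ES, then 2TS22c ES and ZHBTc4 ES, which were not separable either (difference -0.07, against a spread of 0.24 for that pair).

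The passenger strand of the chromosome 9 copy, miR-125b-1-3p, was followed as a second reading of a miR-125b gene. Its intensity was 111 on V6.5 ES, 85 for PKM1 KI ES, 56 for the EB, 61 for 2TS22c ES and 59 for ZHBTc4 ES. It was above both limits on the first 3 arrays, and below the negative control limit on the others. Its level was 6.78 on V6.5 ES and lower on each other array, by 0.29 in PKM1 KI ES, 0.38 in the EB and 0.44 in 2TS22c ES, and by at least 0.48 in ZHBTc4 ES. miR-125b-2-3p, of the chromosome 16 copy, was above the blank limit only on the EB (42, limit 40.3) and never above that of the negative controls.

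miR-125a-5p, which shares the seed of miR-125b-5p but comes from the chromosome 17 locus, stayed detected in 2TS22c ES and ZHBTc4 ES. It was too dim on V6.5 ES for a drop as large as that of miR-125b-5p to be seen above background, so the sizes cannot be compared. Its intensity was 122 on V6.5 ES, 99 for PKM1 KI ES, 130 for the EB, 86 for 2TS22c ES and 93 for ZHBTc4 ES. All 5 values were above both limits. The levels were 6.88, 6.64, 7.26, 7.04 and 6.97, highest on the EB and lowest on PKM1 KI ES, with 2TS22c ES and ZHBTc4 ES within 0.16 of V6.5 ES. Its direction in these lines depended on the processing, with differences of -0.32 in 2TS22c ES and -0.28 in ZHBTc4 ES under spike scaling and of -0.67 and -0.49 with the authors' deposited values. The EB difference of 0.38 from V6.5 ES was 1.31 times the spread of that pair, and with the local background around each spot taken off it was -0.05. The PKM1 KI ES difference of -0.24 was 0.97 times the spread of its pair and was negative under all 6 other processings, from -0.50 to -0.21.

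**Figure D2:**
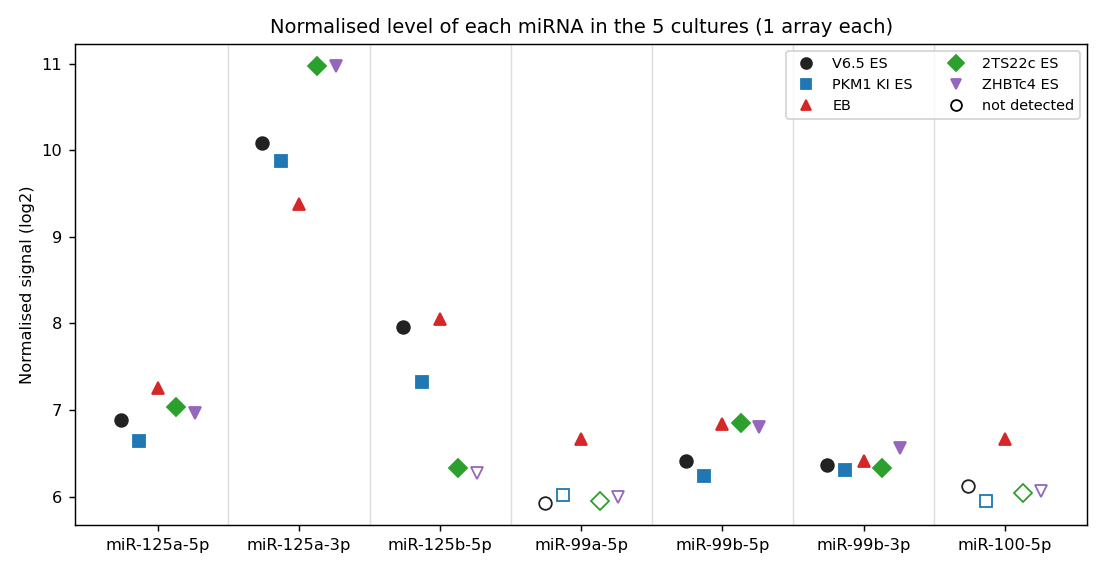
Normalised log2 level of each of the 7 miRNAs, 1 symbol per array, with open symbols for spots that were not detected. miR-125b-5p falls from about the level of V6.5 ES and the EB to the detection limit in 2TS22c ES and ZHBTc4 ES, while miR-125a-3p is highest in those lines.

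The opposite strand of the same hairpin, miR-125a-3p, was the brightest member spot and the only one far above the limits everywhere. Its intensity was 1356 on V6.5 ES, 1254 for PKM1 KI ES, 718 for the EB, 1089 for 2TS22c ES and 1316 for ZHBTc4 ES. After quantile normalisation the levels were 10.08, 9.87, 9.38, 10.97 and 10.97, so the EB was lowest, 1.62-fold below V6.5 ES, and 2TS22c ES and ZHBTc4 ES were highest, each 1.86-fold above it. Of all detected miRNAs, 3.18% were at least 1.5-fold lower in the EB, 8.46% at least 1.5-fold higher in 2TS22c ES and 7.83% in ZHBTc4 ES. The sizes depended on the scaling, and in 2TS22c ES the direction did too. Across the other processings the difference from V6.5 ES ranged from -0.74 to -0.08 in the EB. It ranged from -0.13 to 0.93 in 2TS22c ES and from 0.05 to 1.31 in ZHBTc4 ES. Scaled to the spike controls, the levels were 10.19, 10.14, 10.11, 10.06 and 10.24, a range of 0.18 over all 5 arrays.

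Other bright miRNAs moved with the scaling as well. Among the 60 miRNAs detected on both arrays with a mean level above 9, the median spike-scaled difference from V6.5 ES was -1.03 in 2TS22c ES, -1.07 in ZHBTc4 ES and 0.58 in the EB. miR-125a-3p, at -0.13, 0.05 and -0.08, thus lay above the median of the bright miRNAs in 2TS22c ES and ZHBTc4 ES and below it in the EB under this scaling too. With quantile normalisation, miR-125a-3p lay above the other 3 arrays in both 2TS22c ES and ZHBTc4 ES, as did 19.4% of 959 miRNAs, and was the only member to do so. It did not with spike scaling, and miR-99b-3p joined it with median scaling.

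The arms of 1 hairpin come from the same precursor, so their levels were also set against each other. The change of miR-125a-5p relative to miR-125a-3p, with V6.5 ES as the reference, was 1.08 on the log2 scale in the EB, -0.03 in PKM1 KI ES, -0.74 in 2TS22c ES and -0.80 in ZHBTc4 ES. In the EB it was positive under all 7 processings, from 0.52 with local background to 1.27 with a smaller offset. In 2TS22c ES it ranged from -0.93 to -0.18 and in ZHBTc4 ES from -1.70 to -0.33, with the values nearest 0 under spike scaling, so its size still depended on the scaling. For Mir99b the change of miR-99b-5p relative to miR-99b-3p was 0.38 in the EB, 0.46 in 2TS22c ES, 0.19 in ZHBTc4 ES and -0.12 in PKM1 KI ES. With the authors' deposited values it was 1.66, 1.57, 0.82 and 0.05 in that order, beside 1.17, -0.71, -0.69 and -0.42 for Mir125a. These arm differences have no replicate, and the dim 5p probes are pulled towards 0 difference by the offset.

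**Figure D3:**
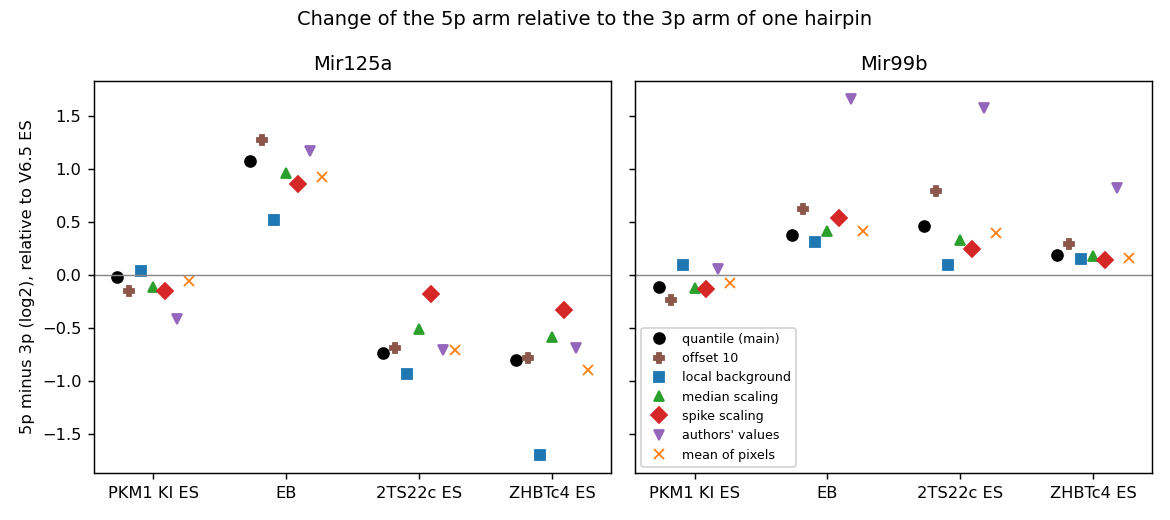
Change of the 5p minus the 3p level of the Mir125a and Mir99b hairpins relative to V6.5 ES (log2), under 7 processings. For Mir125a every processing gives a positive value in the EB and a negative one in 2TS22c ES and ZHBTc4 ES.

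miR-99a-5p and miR-100-5p, both known to target the Mtor pathway, were seen in the EB alone. The miR-99a-5p intensity was 49 on V6.5 ES, 53 for PKM1 KI ES, 75 for the EB, 46 for 2TS22c ES and 50 for ZHBTc4 ES. That of miR-100-5p was 59, 49, 75, 50 and 53 in the same order. Only the EB values were above a detection limit, 11.7 blank SDs above the blank mean for each. The EB array, scanned at the lowest gain, also had the smallest blank SD, 3.57 against 5.65 to 5.91 on the others. A count of blank SDs thus cannot be compared between it and the others as a signal strength. Against V6.5 ES each was at least 1.44-fold higher, a bound of 0.53 on the log2 scale beside a spread of 0.29 for that pair, and the differences as measured were 0.74 and 0.54. All 6 other processings gave a positive difference, from 0.67 to 2.94 for miR-99a-5p and from 0.46 to 1.28 for miR-100-5p. As both were detected on the EB alone, this sign largely followed from that detection and is no added support. With the EB at equal brightness in both and 1 base between the sequences, their spots may share signal and are not independent readings. The 4 neural marker spots were above the negative control limit on the EB too, against 1 or 0 of them on each ES line, and their part in the result was not tested.

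The EB spot of miR-99a-5p was uneven. Its pixels had a median of 75, a mean of 126 and an SD of 225, a coefficient of variation of 1.79, while the other 34 member spots ranged from 0.12 to 0.64. With the mean of the pixels in place of the median, an alternative chosen after seeing the data, the EB difference of miR-99a-5p from V6.5 ES was 1.30. miR-100-5p, with a pixel SD of 20.5 on the EB, changed little, from 0.54 to 0.58.

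miR-99b-5p, the third guide strand with this seed, had intensities of 78 on V6.5 ES, 66 for PKM1 KI ES, 90 for the EB, 79 for 2TS22c ES and 85 for ZHBTc4 ES. Its levels were 6.41, 6.24, 6.84, 6.85 and 6.80. The EB, 2TS22c ES and ZHBTc4 ES lay within 0.05 of each other in the main processing, with V6.5 ES and PKM1 KI ES lower. With spike scaling the EB stood apart, at 7.22 against 6.52 in 2TS22c ES and 6.55 in ZHBTc4 ES, and the authors' deposited values were 75.3, 48.5 and 50.6. The EB difference from V6.5 ES was 0.43, or 1.49 times the spread of that pair, and was positive under every processing, up to 1.39. The differences of 0.44 in 2TS22c ES and 0.39 in ZHBTc4 ES were below the spreads of those pairs (0.58 and 0.52). miR-99b-3p was nearly flat, with intensities of 74, 71, 57, 61 and 72 and levels of 6.36, 6.31, 6.41, 6.34 and 6.56, and a largest difference from V6.5 ES of 0.20, in ZHBTc4 ES.

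**Figure D4:**
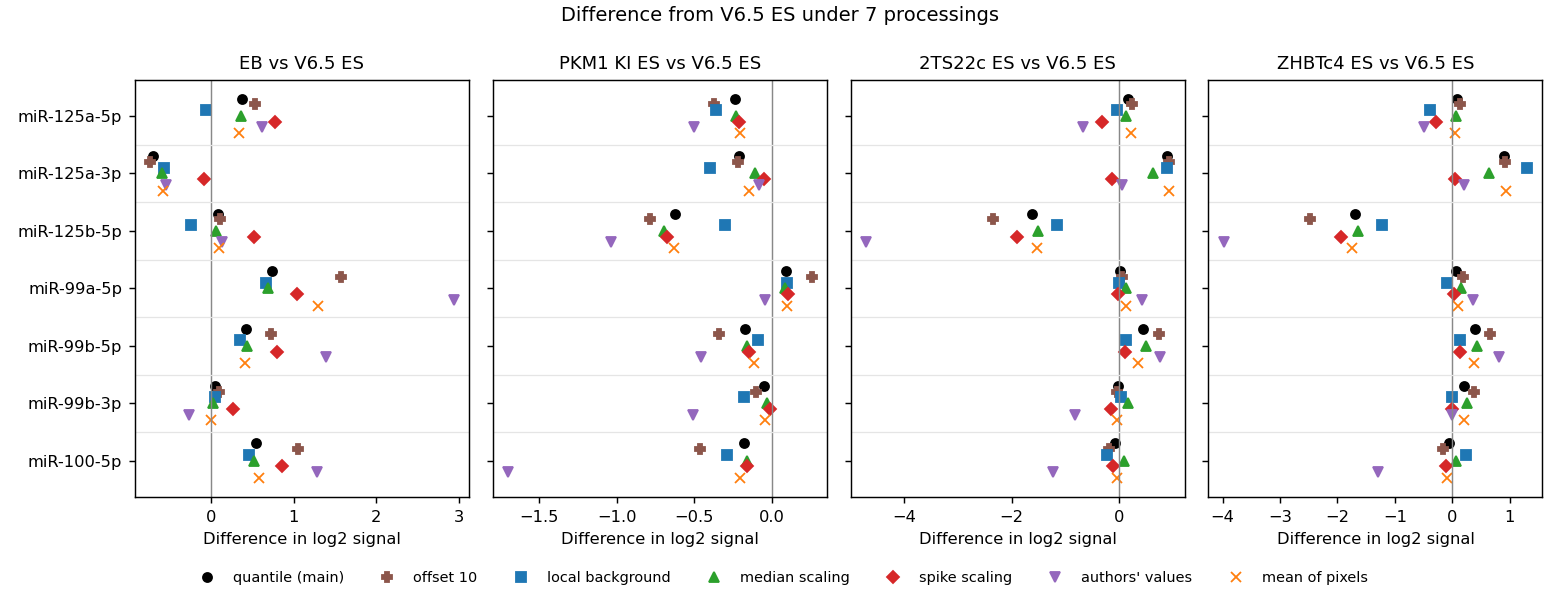
Difference in log2 signal from V6.5 ES for each miRNA under 7 processings, 1 panel per culture. The drop of miR-125b-5p in 2TS22c ES and ZHBTc4 ES and the EB values of miR-99a-5p, miR-99b-5p and miR-100-5p keep their sign in all of them, and miR-125a-3p in 2TS22c ES does not. For miR-99a-5p and miR-100-5p, detected on the EB alone, the kept sign is no added support.

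Taken by culture, 7 members were detected on the EB or V6.5 ES, with 6 higher and 1 lower in the EB and a median difference of 0.38, beside a median of 0.01 over the 850 miRNAs detected on either array. With local background 4 were higher and 3 lower, and with the authors' deposited values 5 and 2. No member passed 2-fold, as did 0.353% of those miRNAs. Of the 6 higher in the main processing, miR-99a-5p and miR-100-5p were detected on the EB alone, so their direction largely followed from that detection. The members detected on both arrays differed by 0.38 (miR-125a-5p), -0.70 (miR-125a-3p), 0.09 (miR-125b-5p), 0.43 (miR-99b-5p) and 0.05 (miR-99b-3p). In PKM1 KI ES all 5 members detected on either array were lower, with a median of -0.21 beside 0.02 over 874 miRNAs, and none passed 2-fold, beside 0.343%. In 2TS22c ES, 3 of 5 were higher and 2 lower, with a median of 0.16 beside -0.06, and 1 passed 2-fold, beside 4.98%. Spike scaling turned this to 1 higher and 4 lower, with a median of -0.14 beside -0.23 over all miRNAs detected on both arrays. The authors' deposited values gave 2 higher and 3 lower (median -0.67). In ZHBTc4 ES, 4 of 5 were higher and 1 lower, with a median of 0.20 beside -0.05, and 1 passed 2-fold, beside 4.22%. Local background, spike scaling and the authors' deposited values each gave 2 higher and 3 lower, with medians of -0.0065, -0.0043 and -0.0020. Over all miRNAs detected on both arrays the spike-scaled median was -0.20 in ZHBTc4 ES. The members left out of these counts were miR-99a-5p and miR-100-5p, detected on neither array. The 4 comparisons share the V6.5 ES array, so they are not independent of each other.

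The EB was also set against the 4 ES lines together, the only contrast with a spread between arrays. That spread is between different lines (3 residual degrees of freedom), and the EB is assumed to vary as they do. By limma with Benjamini-Hochberg adjustment, 0 of 959 miRNAs passed an adjusted p of 0.05 in either direction (0% called), and 23 had an unadjusted p under 0.05 (2.4%). miR-99a-5p was 6.67 on the EB against 5.97 ± 0.04 (SD, n = 4) on the ES lines, and miR-100-5p was 6.67 against 6.04 ± 0.07 (SD, n = 4). These entered the test through the EB alone, and their ES values lie in the background, so the small SDs are those of background and the limma test says nothing of them beyond their detection on the EB.

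Each of the other members was detected on at least 1 ES array, and none passed the limma threshold. miR-125a-5p was 0.37 higher on the EB (SE 0.18), miR-99b-5p 0.26 (SE 0.28), miR-125b-5p 1.07 (SE 0.71) and miR-99b-3p 0.02 (SE 0.14), and miR-125a-3p was lower by -1.09 (SE 0.51), each with a limma adjusted p of 0.99. The EB lay above all 4 ES arrays for 4 members, miR-125a-5p, miR-125b-5p, miR-99a-5p and miR-100-5p, beside 18.6% of the 959 miRNAs. The last 2 were detected on the EB alone, so their place is no support. With local background miR-125a-5p and miR-125b-5p no longer lay above, while miR-99b-5p and miR-99b-3p did. miR-99b-5p also did so with spike scaling, the authors' deposited values and the mean of pixels, and miR-99b-3p with spike scaling. That scaling raised the EB against V6.5 ES over all miRNAs detected on both, by a median of 0.22. The share of all miRNAs above all 4 was not computed under it. The EB lay below all 4 for miR-125a-3p, beside 16.7%, but not with spike scaling.

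**Figure D5:**
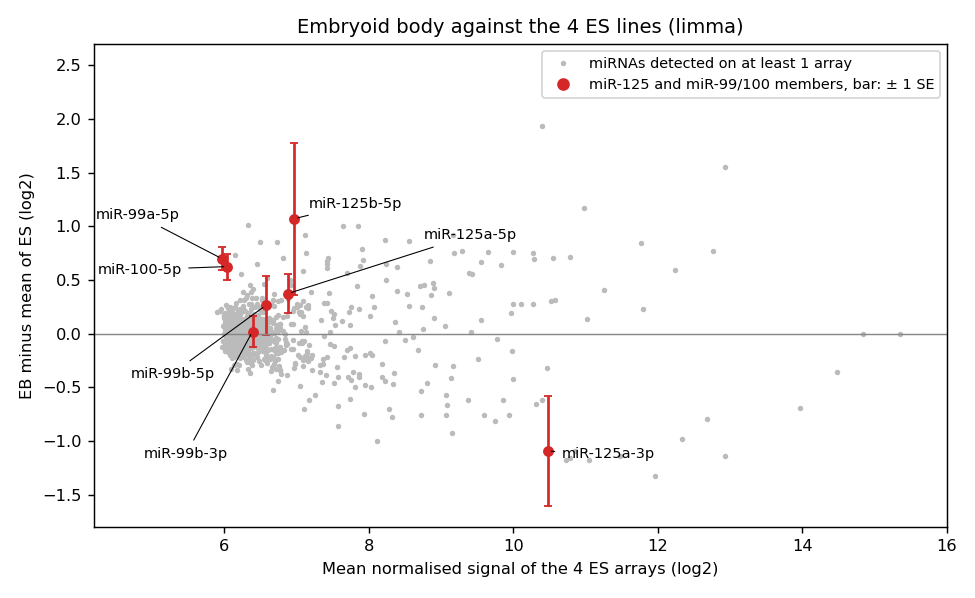
Difference between the EB and the mean of the 4 ES arrays (log2) against that mean, for the 959 miRNAs detected on at least 1 array. Members are in red with ± 1 SE from limma; miR-99a-5p and miR-100-5p have the smallest errors of the 7, from ES values in the background, and miR-125b-5p and miR-125a-3p the largest.

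The let-7 miRNAs of the same loci, which promote differentiation, were read as partners. let-7e-5p, between Mir99b and Mir125a on chromosome 17, had intensities of 72 on V6.5 ES, 66 for PKM1 KI ES, 69 for the EB, 62 for 2TS22c ES and 56 for ZHBTc4 ES, and passed the negative control limit on the EB alone. let-7c-5p, beside Mir99a but also made from Mirlet7c-2 on chromosome 15, had 91, 65, 73, 59 and 56. let-7a-5p, beside Mir100 but also made elsewhere, had 109, 74, 73, 63 and 64, so neither spot reads its locus alone. Neither let-7c-5p nor let-7a-5p passed the negative control limit in 2TS22c ES or ZHBTc4 ES. Their EB level differences from V6.5 ES were 0.26 for let-7e-5p, 0.08 for let-7c-5p and -0.13 for let-7a-5p, all below the spread of the pair, while miR-99a-5p and miR-100-5p of the last 2 loci were higher by the bound of 0.53. Against the mean of the 4 ES lines these let-7 spots were 0.32, 0.34 and 0.17 higher on the EB in that order. The EB lay above all 4 ES arrays for let-7e-5p and let-7c-5p, as for 18.6% of the 959 miRNAs, and not for let-7a-5p.

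Over the let-7 guide strands with miR-98, 10 spots in all, 10 were detected on the EB or V6.5 ES, with 4 higher and 6 lower in the EB and a median of -0.10. In PKM1 KI ES 9 of 9 detected members were lower, with a median of -0.29 beside the -0.21 of the miR-125, miR-99 and miR-100 members. In 2TS22c ES 2 of 9 were higher and 7 lower, with a median of -0.21, and in ZHBTc4 ES 9 of 9 were lower, with a median of -0.20. None of the let-7 spots passed 2-fold in the main processing, but the offset left little room for it. let-7a-5p was 6.76 on V6.5 ES, and the undetected let-7c-5p still read 6.27 on 2TS22c ES and 6.14 on ZHBTc4 ES. A 2-fold fall could hardly be reached, so this count says little of let-7. With the authors' deposited values, a missing value was set to the lowest of its array. The let-7 medians were then -1.48 in 2TS22c ES, -1.69 in ZHBTc4 ES and -0.90 in PKM1 KI ES. Those values were present for 691 miRNA spots on 2TS22c ES and 720 on ZHBTc4 ES, against 977 on V6.5 ES. The same medians over all miRNAs were not computed, so a fall of let-7 and one of dim spots in general cannot be told apart. Local background turned the PKM1 KI ES count to 4 higher and 5 lower. Spike scaling turned the EB median to 0.12, beside 0.22 over all miRNAs detected on both arrays. let-7 probes differ by few bases and may share signal, so these counts are not of independent readings.

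The miRNAs most like each member were found by the root mean square difference between log2 profiles over the 5 arrays, each centred on its own mean, among 952 other detected miRNAs. For miR-125b-5p they were miR-328-5p (0.21), miR-6538 (0.22) and miR-1892 (0.25), all lower in 2TS22c ES and ZHBTc4 ES. For miR-125a-3p they were miR-1902 (0.06), miR-294-5p (0.13) and miR-290-5p (0.15), of which miR-294-5p and miR-290-5p are ES cell markers of the miR-290 to miR-295 cluster. miR-99a-5p was closest to miR-6394 (0.06), miR-9-5p (0.09) and miR-710 (0.11), and miR-100-5p to miR-128-2-5p (0.09). miR-125a-5p and miR-99b-5p, of the same locus, both had miR-181b-5p among their nearest, at 0.07 and 0.09, with miR-130b-3p (0.06) nearest to miR-99b-5p. The flat miR-99b-3p was nearest to miR-544-3p (0.02).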

How the data were processed

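Total RNA was labelled with Hy5 and hybridised to 5 mouse miRNA arrays, 1 per culture, per the labels' protocols. The authors deposited each array's scanner output, with a spot's intensity given as the median, mean and SD of its pixels before any background was taken off, per the file headers. A deposited table of processed intensity values, linear with a median of 25 in each column, served as an alternative; how it was made is not given in the sources used here.

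Spot medians were corrected with limma 3.58.1 (R 4.3.3; normexp over every spot by the saddle-point method, with 50 added), quantile-normalised over the 1265 miRNA spots and put on a log2 scale. The offset pulls differences of dim miRNAs towards 0. The number of arrays limits the precision. The limma step was tested on simulated data. Each comparison of 2 arrays is a description with no test. Where 2 arrays are compared, the spread is the SD of the differences of all miRNAs detected on both. Each array was taken as its own group by its label. Named miRNAs are the 7 members, the other strands and let-7 partners of their loci, miR-10a-5p, miR-10b-5p and the 3 nearest profiles of each member; shared-seed miRNAs were added later. The members, lists and tests were chosen with earlier results of these data known. Sequences and coordinates are from RefSeq (GRCm38.p6), and the array files name no build.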

Additional observations from a re-analysis of the deposited data

How the results depend on the processing

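Each comparison was recomputed with a normexp offset of 10, local background, median scaling, spike control scaling, the authors' deposited values, the negative control limit, all miRNA spots and members at their bound, and with the mean of the spot pixels, added after seeing the data. Of 168 single-member differences from V6.5 ES, 36 moved by more than the spread of their pair and 22 changed sign, and no change of sign was of a difference of at least 2-fold. The median EB difference of 0.38 was 0.048 with local background. With spike scaling it was 0.77, beside 0.22 over all miRNAs detected on both arrays. With the authors' deposited values the median was -0.50 in PKM1 KI ES and -0.67 in 2TS22c ES. The count of members at least 2-fold apart, 0 in the EB, was 2 with an offset of 10, 3 with the authors' values and 1 with the mean of pixels. In PKM1 KI ES miR-125b-5p passed 2-fold with the authors' values, and in ZHBTc4 ES miR-125a-3p joined miR-125b-5p with local background. The cause was not tested. The limma count of 0 calls stayed at 0 under every alternative, from 0 to 0 when each ES line was left out in turn, and with the chip as a term, which is the same fit as leaving out ZHBTc4 ES. No paired analysis was possible because the labels give no replicate numbers. Signals of miR-99a-5p and miR-100-5p in the ES lines lie in the background, so lower levels there were not detectable.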

Other observations

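Besides the members, 3 mouse miRNAs in RefSeq carry the miR-125 seed, and their spots were looked up after the members' values had been seen.
miR-6394: uCCCUGAGuggggccaggucu
miR-351-5p: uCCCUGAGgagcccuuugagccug
miR-6367: uCCCUGAGacccugguucagga
miR-6394 had an intensity of 186 on V6.5 ES, 185 for PKM1 KI ES, 259 for the EB, 121 for 2TS22c ES and 123 for ZHBTc4 ES. Its levels were 7.32, 7.42, 8.07, 7.49 and 7.44, so the EB stood above the 4 ES arrays, which lay within 0.17 of each other. It did not fall to near background in 2TS22c ES and ZHBTc4 ES, as miR-125b-5p did. miR-351-5p, of the X-linked miR-322 and miR-503 cluster, was above both limits on all 5 arrays and had levels from 6.52 on the EB to 6.64 on ZHBTc4 ES. miR-6367 was above the blank limit on 2 arrays and never above that of the negative controls.

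The related miR-10a-5p and miR-10b-5p lay near background. miR-10b-5p had an intensity of 52 on the EB, above both limits there, and 64 on V6.5 ES, above the blank limit only. miR-10a-5p was above the blank limit on PKM1 KI ES and the EB and never above that of the negative controls. Of the remaining strands of the 3 loci, miR-100-3p, let-7e-3p, let-7c-1-3p and let-7a-2-3p were detected on no array, and miR-99a-3p only on PKM1 KI ES (60, limit 59.5).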
